A study of Mus musculus with 6 samples.

Results

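Gdf15 and 9 regulators of the integrated stress response were followed across all libraries of the series. The set holds the secreted output Gdf15, the transcription factor genes Atf4, Atf5, Ddit3 (which encodes CHOP) and Atf3, and the feedback and effector genes Trib3, Ppp1r15a, Chac1, Sesn2 and Ddit4. These 10 genes were taken by name from the 23282 rows of the count table, and each had 1 row. They were chosen for their place in the pathway with earlier results of the same genotype contrast known. Their levels and fold changes between genotypes are therefore given as a description, without p-values.

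The libraries came from alveolar macrophages, the resident phagocytes of the air spaces, sorted from mouse lung by a gate that required CD45, CD11c, F4/80 and SiglecF and left out CD11b positive cells. There were 3 WT libraries, labelled as wildtype, and 3 Sdha-KO libraries from mice with floxed Sdha and LysM-Cre, in which the Lyz2 locus drives Cre recombinase in myeloid cells. Sdha encodes the flavoprotein of succinate dehydrogenase, the complex II enzyme of respiration. Per its title, the study concerns the role of this enzyme in macrophage homeostasis and metabolism. Each of 3 labelled batches held 1 library of each genotype. The labels state no treatment and no age, are silent on Cre and floxed alleles in WT mice, and do not tell whether libraries were pooled over mice, so the spread between libraries may be partly technical.

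The integrated stress response starts when any of several kinases phosphorylates the alpha subunit of the translation factor eIF2. General protein synthesis then falls while the Atf4 mRNA is translated more, and the ATF4 protein switches on genes of amino acid supply, redox balance and further transcription factors. PPP1R15A, also called GADD34, closes the loop by bringing a phosphatase to eIF2. GDF15 is a secreted member of the TGF-beta superfamily that is induced by mitochondrial and other cell stress. Because ATF4 is controlled largely in translation, an mRNA level is not a measure of its protein.

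Total counts per library ranged from 5400160 to 8472907. Of these, the ribosomal RNA row Rn45s alone held 36.3%, 57.6% and 44.7% in WT replicates 1 to 3. It held 20.9%, 43.4% and 48.2% in Sdha-KO replicates 1 to 3, so the totals overstate the depth for other genes, unequally between libraries. The batch 1 libraries stood apart: they detected 7893 (WT) and 5438 (Sdha-KO) genes against 11383 to 13050 in the other 4, and lacked 136 and 612 of the 3447 genes that reached 100 counts in all of those 4. Sdha lay at 56.0 to 72.2 CPM in WT and 21.0 to 26.1 CPM in Sdha-KO libraries, without overlap, where CPM is the usual rate of a gene's count per library size, corrected for library composition. A kit that reads 3' ends need not read the deleted exons, so this is a limited check. Of the alveolar macrophage markers Marco was detected in all 6 libraries, while Siglecf, part of the sort, had 103, 138 and 132 CPM in WT replicates 1 to 3 and 0, 39.6 and 45.3 CPM in Sdha-KO replicates 1 to 3, below WT in all of them. Summed over 17 alveolar macrophage markers, libraries held 9269 to 10998 CPM in WT and 8108 to 10509 CPM in Sdha-KO. Chil3 alone held 3507 to 5424 CPM of these sums. Of the 17 markers 6 had a positive log2 fold change and the median was -0.78. The 5 markers Ear1 (633 and 132 CPM on average), Ear2 (782 and 216), Krt79 (136 and 34.7), Cidec (124 and 47.4) and Siglecf were below WT in Sdha-KO without overlap, and 1, Car4 (389 and 860), was above. Of all tested genes 5.04% were above WT without overlap. The share below WT was not computed, so the 5 markers have no background rate beside them. Ear1 fell in the test across all genes (log2 fold change -2.26, edgeR adjusted p = 0.0261), which it passed in 11 of 17 alternatives (adjusted p 8.48e-07 to 0.382), but not in edgeR with the replicate block (0.374). Summed neutrophil markers, 9 in the table, held 80.8 to 111 CPM in WT and 169 to 238 CPM in Sdha-KO, and lymphocyte markers, 11 in the table, 288 to 524 and 85.4 to 197 CPM, both without overlap. Summed dendritic cell markers, 12 in the table, held 96.1 to 177 and 146 to 363 CPM, monocyte and interstitial macrophage markers, also 12, held 207 to 447 and 156 to 609 CPM, and eosinophil markers, 5 with Prg2 and Epx at 0 throughout, held 8.43 to 11.7 and 0 to 7.90 CPM. Epithelial markers, 12 in the table, held 293 to 490 and 199.8 to 835 CPM. The part of these shifts in the results was not tested. In batch 1, Xist lay at 0 CPM in WT and 224 CPM in Sdha-KO and the Y-linked Ddx3y at 27.2 and 0 CPM. In the libraries of batches 2 and 3, Xist lay at 1023 and 771 CPM in WT and 92.6 and 123 CPM in Sdha-KO, and Ddx3y at 0 and 18.2 CPM in WT and 65.8 and 64.4 CPM in Sdha-KO. WT replicate 3 and Sdha-KO replicates 2 and 3 thus held both, so by these markers they held RNA of both sexes. The sex markers thus differed between the genotypes in each batch, in opposite directions in batch 1 and in the others, and in a single batch or without batch 1 genotype and sex cannot be told apart. In sorted bulk RNA, fewer cells of a type and less RNA per cell cannot be told apart either. Values without both batch 1 libraries therefore stand beside those from all libraries, not in their place.

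The promoters of 6 start sites are shown because they differ in the elements that stress factors are known to bind. They are RefSeq windows of 250 bases before to 50 after a start site, on GRCm38.p6, the assembly that mm10 corresponds to, read 5' to 3' on the strand of the gene. All 10 genes had a window and 12 windows were found, since Gdf15 and Atf5 have 2 start sites each. Capitals mark 3 motifs searched on both strands: the C/EBP-ATF element TGATGNAA that ATF4 and CHOP bind, the cAMP response element TGACGTCA, and the hypoxia element NACGTG, whose ACGTG letters are capitalised with a sixth letter where both strands matched.
Gdf15, chr8:70632407-70632706, minus strand: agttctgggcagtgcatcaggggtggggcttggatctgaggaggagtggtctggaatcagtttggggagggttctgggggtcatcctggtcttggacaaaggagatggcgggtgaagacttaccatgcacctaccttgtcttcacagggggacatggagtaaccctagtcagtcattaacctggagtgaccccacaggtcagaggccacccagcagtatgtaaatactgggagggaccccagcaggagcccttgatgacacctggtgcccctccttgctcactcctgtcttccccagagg
Gdf15, inner start, chr8:70632046-70632345, minus strand: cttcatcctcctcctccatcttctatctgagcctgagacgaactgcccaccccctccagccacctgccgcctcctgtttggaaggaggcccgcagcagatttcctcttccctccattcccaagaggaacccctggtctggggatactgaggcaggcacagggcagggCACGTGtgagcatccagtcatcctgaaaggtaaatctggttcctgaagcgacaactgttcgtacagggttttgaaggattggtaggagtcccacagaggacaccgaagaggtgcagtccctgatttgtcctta
Ppp1r15a, chr7:45526219-45526518, minus strand: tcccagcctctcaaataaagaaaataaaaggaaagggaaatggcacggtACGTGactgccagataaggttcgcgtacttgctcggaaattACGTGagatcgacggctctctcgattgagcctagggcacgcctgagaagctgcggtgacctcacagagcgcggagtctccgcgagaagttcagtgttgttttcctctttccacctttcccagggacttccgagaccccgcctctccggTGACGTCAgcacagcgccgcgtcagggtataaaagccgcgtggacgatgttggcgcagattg
Atf3, chr1:191183284-191183583, minus strand: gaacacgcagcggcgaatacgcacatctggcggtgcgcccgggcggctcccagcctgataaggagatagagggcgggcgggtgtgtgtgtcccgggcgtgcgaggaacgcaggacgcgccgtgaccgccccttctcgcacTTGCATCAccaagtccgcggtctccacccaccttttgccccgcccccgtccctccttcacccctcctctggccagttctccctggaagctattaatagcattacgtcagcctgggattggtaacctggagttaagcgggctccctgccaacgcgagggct
Trib3, chr2:152344011-152344310, minus strand: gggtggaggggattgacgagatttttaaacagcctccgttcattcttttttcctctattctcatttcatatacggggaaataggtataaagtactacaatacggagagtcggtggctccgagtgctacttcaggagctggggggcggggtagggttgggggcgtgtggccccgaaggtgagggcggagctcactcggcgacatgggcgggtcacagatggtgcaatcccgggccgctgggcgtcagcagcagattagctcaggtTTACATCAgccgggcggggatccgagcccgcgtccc
Chac1, chr2:119350992-119351291, plus strand: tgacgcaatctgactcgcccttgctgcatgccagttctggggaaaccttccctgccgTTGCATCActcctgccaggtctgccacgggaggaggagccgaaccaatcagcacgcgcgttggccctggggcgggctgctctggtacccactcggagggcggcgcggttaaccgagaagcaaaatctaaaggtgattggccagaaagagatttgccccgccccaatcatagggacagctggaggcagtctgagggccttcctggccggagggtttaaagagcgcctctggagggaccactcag

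The C/EBP-ATF element was found in 3 of the 10 genes, Atf3, Trib3 and Chac1, and in 4.51% of the 27025 genes with a window (3.97% of 32851 windows). In Atf3 and Chac1 it begins 110 and 193 bases before the start site, and in Trib3 at base 15 of the RefSeq transcript. The gene coordinates given for Trib3 below begin after that element, which by them lies before the gene. The cAMP response element was found in Ppp1r15a, 12 bases before the start, and in 2.03% of genes. The hypoxia element was found in Gdf15 (inner start only), Ddit3, Ppp1r15a and Ddit4, and in 21.7% of genes. The outer Gdf15 window, whose start site is the annotated 5' end of the gene, held none of the 3 motifs. These are matches of letters, not measured binding.

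Gdf15 (ENSMUSG00000038508, chr8:70629393-70632456) was the most abundant of the 10 genes in every Sdha-KO library. It had 2187, 1500 and 2122 counts in WT replicates 1 to 3, which is 268, 333 and 270 CPM. The Sdha-KO libraries of batches 1 to 3 had 45513, 8995 and 9737 counts, or 3798, 1673 and 1451 CPM. The WT libraries were within 1.24-fold of each other, and all Sdha-KO libraries lay above them. In rank among all rows of the table Gdf15 stood at 340, 218 and 316 in WT and at 8, 18 and 27 in Sdha-KO libraries. The fit over all libraries gave a log2 fold change of 2.99 (SE 0.39), or 7.95-fold, from 290 ± 36.8 to 2307 ± 1296 CPM (SD, n = 3). Sdha-KO replicate 1 held the highest value, and within batches the differences were 14.2-fold, 5.03-fold and 5.37-fold. Without both batch 1 libraries the fitted change was 2.38 (SE 0.22), or 5.22-fold.

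**Figure D1:**
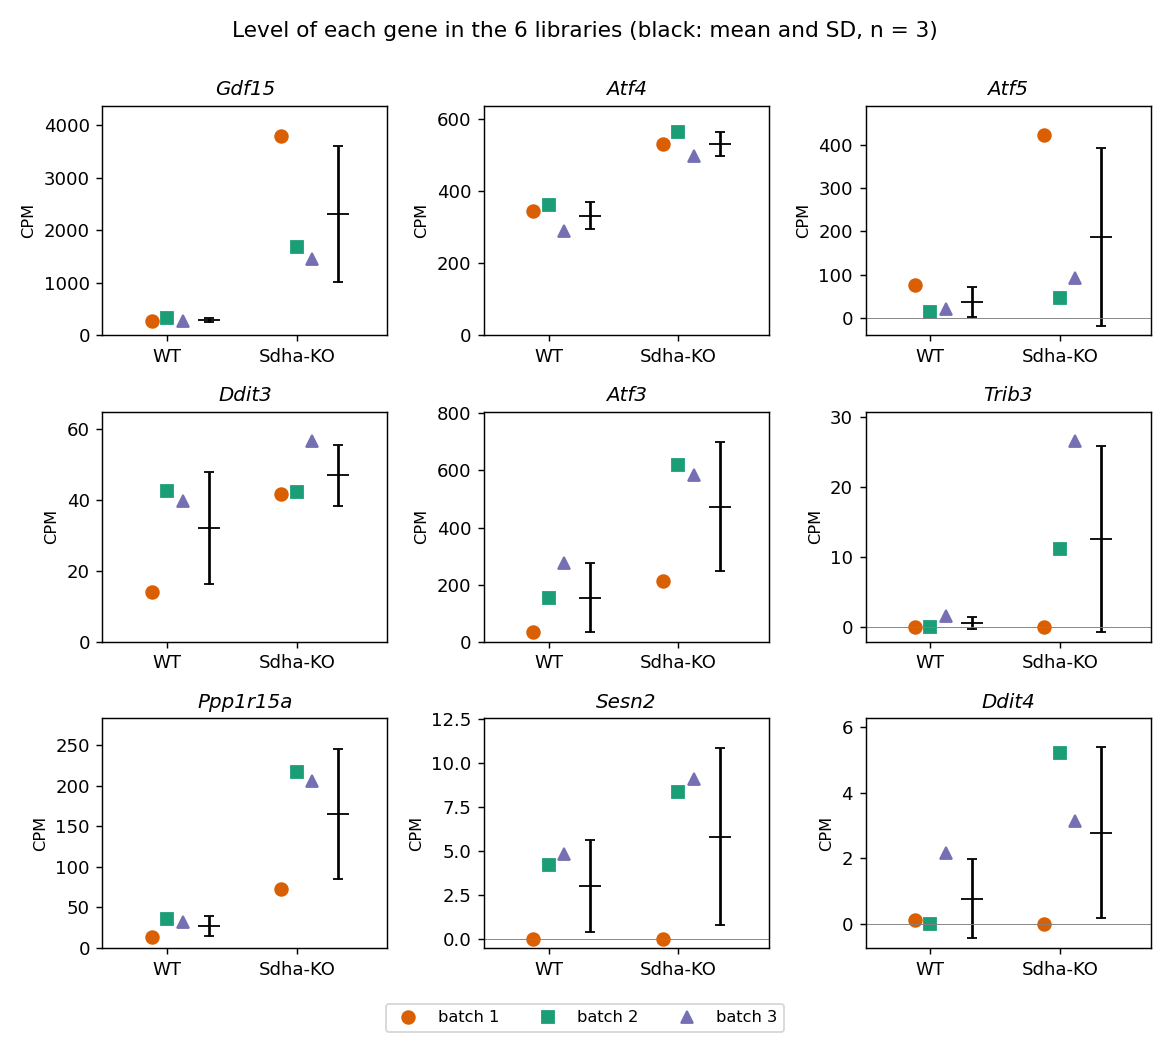
Level of each of the 9 detected genes in CPM (y axis, linear) in WT and Sdha-KO libraries (x axis). Coloured symbols are single libraries by batch, and black bars give the mean and SD over 3 libraries. Gdf15, Atf4 and Ppp1r15a have no overlap between genotypes, and Atf5 is highest in both batch 1 libraries.

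Across all 9963 genes tested, edgeR's quasi-likelihood test called 5 genes at a Benjamini-Hochberg adjusted p under 0.05, which is 0.0502% of them (4 higher in Sdha-KO, 0.0401%). Of the 10 genes of the set, 9 passed the filter on low counts and 1, Gdf15, was called. As the set was chosen on this contrast, nothing is read from that count. In a design blocked by replicate number, edgeR called 0 of the 9, and 0 genes in all (296 at an unadjusted p under 0.05). The fitted change of Gdf15 in that design was 2.85. DESeq2 with the same block called Gdf15 and Ppp1r15a, where 0.723% of all genes were called. Gdf15 was also not called without WT replicate 1, with a fitted change of 2.93. Without both batch 1 libraries edgeR called Gdf15 and Ppp1r15a, where 0.251% of all genes were called.

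Atf4 (ENSMUSG00000042406, chr15:80255184-80257541), the central transcription factor of the response, varied little within a genotype. It stood at 344, 361 and 290 CPM in WT replicates 1 to 3 and at 530, 564 and 497 CPM in Sdha-KO replicates 1 to 3. The genotypes did not overlap, and libraries of 1 genotype differed by at most 1.25-fold. Its log2 fold change was 0.68 (SE 0.29). Within batches the differences were 1.54-fold, 1.57-fold and 1.72-fold. Gdf15 had 0.780 to 0.933 counts per Atf4 count in WT libraries and 2.92 to 7.17 in Sdha-KO libraries. Reads from 3' ends do not add up with transcript length, so counts of genes can be set side by side in 1 library.

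Atf5 (ENSMUSG00000038539, chr7:44812256-44816658), a related factor linked to the mitochondrial unfolded protein response, varied strongly with the batch. It had 75.4, 12.6 and 21.1 CPM in WT replicates 1 to 3 and 424, 46.1 and 93.2 CPM in Sdha-KO replicates 1 to 3. The value of WT replicate 1 lay between those of Sdha-KO replicates 2 and 3, so the genotypes overlapped. Inside each batch the Sdha-KO library was above its WT partner by 5.62-fold, 3.65-fold and 4.41-fold. With all libraries the log2 fold change was 2.37 (SE 0.96). For Atf5 it was 0.93 without Sdha-KO replicate 1, 3.47 without WT replicate 1 and 2.05 (SE 0.50) without both. Exons of Atf5 overlap those of Nup62 and Il4i1 on the other strand. Il4i1 had no counts, and Nup62 had 625, 160 and 252 counts in WT and 281, 185 and 303 in Sdha-KO libraries against 615, 57 and 166 and 5079, 248 and 625 for Atf5. As the use of strand in counting is not given, the Atf5 count is uncertain.

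Ddit3 (ENSMUSG00000116429, chr10:127290829-127293753), which encodes the ATF4 partner CHOP, overlapped between genotypes. It had 14.0, 42.6 and 39.9 CPM in WT replicates 1 to 3 and 41.8, 42.2 and 56.8 CPM in Sdha-KO replicates 1 to 3. Only WT replicate 1 lay clearly below the rest. The batch 2 libraries had nearly the same level (ratio 0.991), while batches 1 and 3 differed by 2.99-fold and 1.43-fold. The genotype fit gave Ddit3 a log2 fold change of 0.55 (SE 0.93). Its exons overlap those of the methionyl-tRNA synthetase gene Mars on the other strand. Mars had 138, 297 and 386 counts in WT and 791, 309 and 494 in Sdha-KO libraries, and the Ddit3 count was 63.3% to 82.6% of the Mars count in all 6 libraries. Whether reads were counted by strand is not given in the sources used here, so the Ddit3 count is uncertain.

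Atf3 (ENSMUSG00000026628, chr1:191170296-191218039), a stress-induced factor downstream of ATF4, varied widely among WT libraries. It had 35.0, 152 and 276 CPM in WT replicates 1 to 3 and 212, 620 and 584 CPM in Sdha-KO replicates 1 to 3. WT replicate 3 lay above Sdha-KO replicate 1, so the genotypes overlapped. Within batches Sdha-KO was above WT by 6.05-fold, 4.08-fold and 2.12-fold. Over all libraries the log2 fold change was 1.61 (SE 0.71), or 3.06-fold, and without both batch 1 libraries Atf3 was 2.83-fold higher.

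Ppp1r15a (ENSMUSG00000040435, chr7:45522916-45526268), the phosphatase subunit that ends the response, was among the 3 genes whose genotypes did not overlap. It stood at 13.5, 35.7 and 32.2 CPM in WT replicates 1 to 3 and at 72.8, 217 and 206 CPM in Sdha-KO replicates 1 to 3. The highest WT library lay below the lowest Sdha-KO library, and batch 1 was lowest in both genotypes. Within batches the differences were 5.40-fold, 6.06-fold and 6.40-fold, the smallest spread among the 9 detected genes after Atf4. Its log2 fold change was 2.61 (SE 0.61) with all libraries and 2.65 (SE 0.28) without both batch 1 libraries. Its exons overlap Tulp2 on the other strand, whose counts were at most 25.5% of those of Ppp1r15a in any library.

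Atf3 and Ppp1r15a are also known as genes that respond to tissue handling. Of 28 tested immediate early or heat shock genes, 19 had a positive log2 fold change (median 0.42; all tested genes 45% positive, median -0.13). Sdha-KO was above WT in all 3 batches in 11 of 28 (39.3%; all tested genes 11.4%), and without overlap in 4 of 28 (14.3%; all tested genes 5.04%), namely Junb, Zfp36, Ier3 and Socs3. edgeR and DESeq2 called 0 of them (3 and 2 had an unadjusted p under 0.05), limma-voom 1, edgeR with no filter 1, and edgeR with the replicate block and without both batch 1 libraries 6. Over all genes these settings called, in that order, 5, 21 and 79 of 9963, 48 of 15381 and 324 of 10757. An unadjusted p under 0.05 was found for 263 genes with edgeR and 332 with DESeq2. As a sum they stood at 6496, 5928 and 8996 CPM in WT replicates 1 to 3 and 7417, 9051 and 10136 CPM in Sdha-KO replicates 1 to 3, higher in Sdha-KO in all 3 batches. Junb had 469 ± 86.1 and 903 ± 231 CPM, and its exons overlap Prdx2. Fos had 695 ± 112 and 494 ± 381 CPM, Fosb 545 ± 408 and 886 ± 248 CPM, and Hsp90aa1 491 ± 270 and 655 ± 462 CPM (WT and Sdha-KO, SD, n = 3), all with overlap. The part of this list in the levels of Atf3 and Ppp1r15a was not tested.

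**Figure D2:**
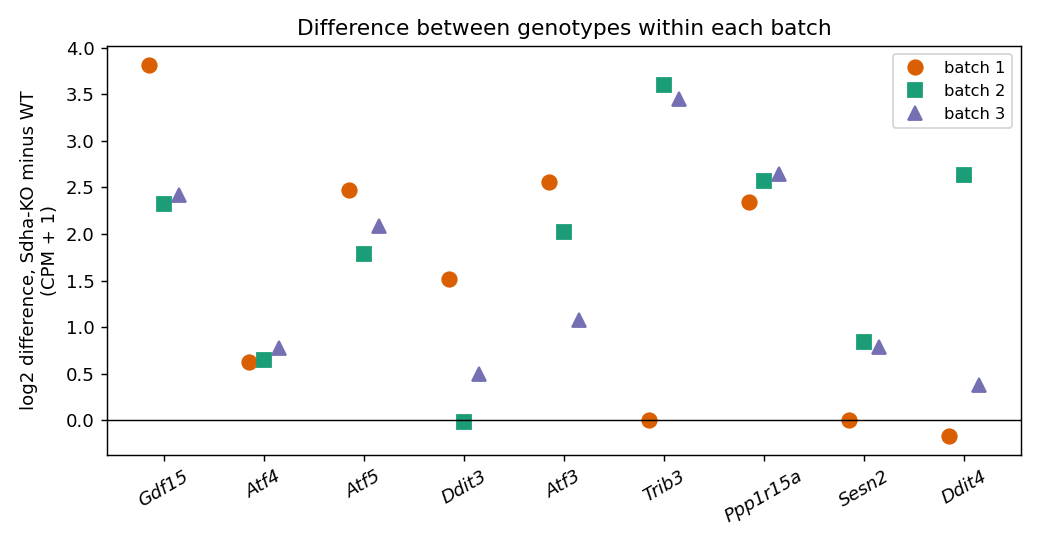
Log2 difference between the Sdha-KO and the WT library of each batch (y axis, CPM + 1) for 9 genes (x axis), 1 symbol per batch. Gdf15, Atf4, Atf5, Atf3 and Ppp1r15a lie above 0 in 3 of 3 batches, and Trib3 and Sesn2 lie at 0 in batch 1 because neither library had a count.

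The remaining feedback and effector genes were near or below the limit of these libraries. Trib3 (ENSMUSG00000032715, chr2:152337422-152344032), a pseudokinase that restrains ATF4 and AKT, had 0, 0 and 12 counts in the WT libraries of batches 1 to 3, against 0, 60 and 178 in their Sdha-KO partners. It was therefore seen mainly in Sdha-KO replicates 2 and 3, at 11.2 and 26.5 CPM, and was 17.4-fold higher than WT in batch 3. In batch 2, where WT had no count, it was at least 16.8-fold higher when WT is set to 3 counts in that library, the number a count of 0 allows. Its fitted log2 fold change was 4.56 (SE 3.00).

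Sesn2 (ENSMUSG00000028893, chr4:132492032-132510501), a leucine sensor that restrains mTORC1, had 0, 19 and 38 counts in the WT and 0, 45 and 61 counts in the Sdha-KO libraries of batches 1 to 3. Ddit4 (ENSMUSG00000020108, chr10:59949669-59951834), also called REDD1 and another inhibitor of mTORC1, had 1, 0 and 17 counts against 0, 28 and 21. Both lacked counts in batch 1 apart from that single read, and their fitted log2 fold changes of 0.94 (SE 2.62) and 1.83 (SE 2.70) were smaller than their errors. Chac1 (ENSMUSG00000027313, chr2:119351229-119354381), a glutathione-degrading enzyme and a CHOP target, had no count in any library, which allows up to 0.250 to 0.666 CPM depending on the library and for counting error only. It was not detectable at this depth.

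In 5 of the 9 tested genes, Gdf15, Atf4, Atf5, Atf3 and Ppp1r15a, the Sdha-KO library was above the WT library in all 3 batches, where 11.4% of all tested genes were. In 3 of them, Gdf15, Atf4 and Ppp1r15a, the genotypes did not overlap, where 5.04% of all tested genes had all Sdha-KO libraries above. All 9 fitted changes were positive, where 45% of all tested genes were, with a median of 1.83. The set was chosen with these values known, so the counts are a description.

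Relative to Atf4 in the same library, which does not depend on scaling between libraries, the genes did not move alike. Ppp1r15a had 0.0392, 0.0991 and 0.111 counts per Atf4 count in the WT libraries of batches 1 to 3, against 0.137, 0.384 and 0.415 in Sdha-KO. Atf5 had 0.219, 0.0351 and 0.0730 against 0.800, 0.0817 and 0.187, and was higher in Sdha-KO in each batch. Ddit3 had 0.0407, 0.118 and 0.138 against 0.0789, 0.0748 and 0.114, so that it was lower in Sdha-KO in batches 2 and 3 and higher in batch 1. Summed over the 10 genes, libraries held 750 to 941 CPM in WT and 2928 to 5078 CPM in Sdha-KO, and Gdf15 made up 28.8% to 35.8% of that sum in WT and 49.6% to 74.8% in Sdha-KO.

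**Figure D3:**
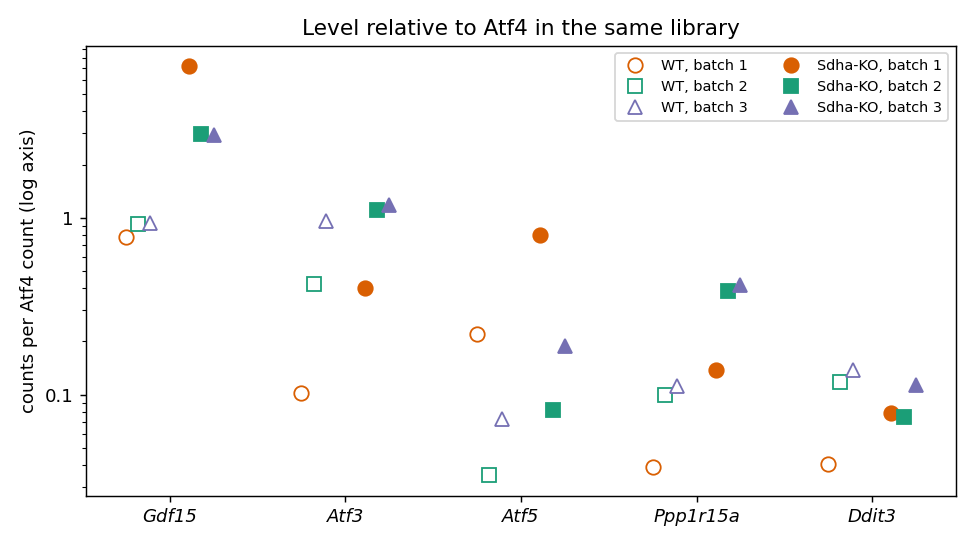
Counts of 5 genes per count of Atf4 in the same library (y axis, log scale), with open symbols for WT and filled symbols for Sdha-KO, 1 shape per batch. Gdf15 and Ppp1r15a lie above WT in all Sdha-KO libraries, and Ddit3 overlaps.

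Upstream of ATF4 the genes of the machinery showed no common direction. Of 21 eIF2 kinases, eIF2 and eIF2B subunits and partners, 11 had a positive log2 fold change, the median was 0.06 and none was above WT in all 3 batches. edgeR and DESeq2 called 0 of them (0 at an unadjusted p under 0.05), and limma-voom called 1, Dnajc3, which had no count in Sdha-KO replicate 1. Over all 9963 tested genes edgeR called 5, DESeq2 21 and limma-voom 79. The 4 kinases, named for their role, differed from one another. The gene of the haem-regulated kinase HRI, Eif2ak1, had 38.4 ± 11.7 CPM in WT and 71.7 ± 51.6 CPM in Sdha-KO, and that of the amino acid sensor GCN2, Eif2ak4, 75.6 ± 23.7 and 31.0 ± 15.9 CPM. The gene of the endoplasmic reticulum kinase PERK, Eif2ak3, had 8.56 ± 4.27 and 5.08 ± 4.64 CPM, and that of the RNA-sensing kinase PKR, Eif2ak2, 6.78 ± 6.63 and 13.5 ± 18.5 CPM (SD, n = 3 throughout). Both Eif2ak4, without overlap, and Eif2ak3 were lower in Sdha-KO in every batch. So were Dnajc3, Oma1 (28.3 and 10.2 CPM on average) and, without overlap, Nck1 (43.6 and 22.5 CPM). Nck1 and Oma1 were singled out after their values were seen. The 4 most abundant genes of the list overlapped between genotypes: the eIF2 beta subunit gene Eif2s2 (343 ± 113 and 359 ± 70.5 CPM), the PERK inhibitor gene Dnajc3 (147 ± 22.3 and 88.9 ± 82.7 CPM), the constitutive eIF2 phosphatase subunit gene Ppp1r15b (99.9 ± 22.3 and 89.0 ± 47.4 CPM) and the catalytic subunit gene Ppp1ca (86.3 ± 23.3 and 98.4 ± 3.29 CPM). The stress-induced subunit gene Ppp1r15a and the constitutive Ppp1r15b thus had fitted changes of 2.61 and -0.17.

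Among 15 tested bZIP factors that can pair with ATF4 or CHOP, 9 were positive, the median was 0.19 and edgeR, DESeq2 and limma-voom called 0 (0, 0 and 1 at an unadjusted p under 0.05). Over all 9963 tested genes 263, 332 and 986 had such an unadjusted p. With the replicate block in edgeR 7 were positive and the median was -0.40, and with limma-voom 5 and -0.31. The median of all tested genes was lower in both settings, at -0.48 and -0.65. Cebpb had 378 ± 77.6 and 407 ± 38.0 CPM, Nfe2l2, which encodes NRF2, 336 ± 52.3 and 220 ± 114 CPM, Cebpa 177 ± 38.7 and 141 ± 63.0 CPM and Cebpg 74.2 ± 32.9 and 111 ± 29.2 CPM, each with overlap between genotypes (WT and Sdha-KO, SD, n = 3). Relatives of the feedback genes were mixed, with 4 of 6 tested positive. The pseudokinase gene Trib1 had 97.9 ± 54.7 and 255 ± 146 CPM and the mTORC1 inhibitor gene Tsc2 36.6 ± 8.60 and 69.0 ± 29.4 CPM, both without overlap. For Trib1, WT replicate 3 (156 CPM) and Sdha-KO replicate 3 (158 CPM) were nearly equal, and Sdha-KO replicate 1 was highest (423 CPM). Atf6b had 102 ± 77.7 and 110 ± 107 CPM.

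Downstream, 32 of 40 tested ATF4 and CHOP target genes outside the set had a positive log2 fold change, with a median of 0.58 against -0.13 for all tested genes. edgeR called 0 higher and 0 lower (3 at an unadjusted p under 0.05), DESeq2 called 1 and limma-voom 2. Over all 9963 tested genes edgeR called 5 (263 at an unadjusted p under 0.05), DESeq2 21 and limma-voom 79. Sdha-KO was above WT in all 3 batches in 11 of 40 (27.5%; all tested genes 11.4%), and without overlap in 7 of 40 (17.5%; all tested genes 5.04%). Below WT without overlap was 1 of 40, the stress-induced chromatin protein gene Nupr1, with 40.4, 38.2 and 34.3 CPM in WT replicates 1 to 3 and 0, 14.3 and 15.2 CPM in Sdha-KO replicates 1 to 3. The share of all tested genes below WT without overlap was not computed. The glutamine transporter gene Slc1a5 (30.2 and 9.99 CPM on average) was also lower in Sdha-KO in every batch, with overlap. The transcriptional co-regulator gene Ifrd1 had 360, 196 and 281 CPM in WT replicates 1 to 3 and 1119, 1030 and 966 CPM in Sdha-KO replicates 1 to 3, a log2 fold change of 1.89 (edgeR adjusted p = 0.0706). It passed in 6 of 17 alternatives, among them DESeq2 and the libraries of batches 2 and 3 alone, with edgeR, DESeq2 or limma-voom adjusted p from 5.43e-07 to 0.387. Exons of Ifrd1 overlap Gm7008, of Sqstm1 Mrnip, of Tsc2 Pkd1 and of Pdia3 Catsper2, so these counts are uncertain. So are those of other named genes with overlapping exons, among them Ppp1ca (Rad9a), Pcsk7 (Tagln, Rnf214), Eif2ak1 (Aimp2, Ankrd61) and Cebpb (Tmem189). The autophagy receptor gene Sqstm1 had 181 ± 82.5 and 429 ± 48.5 CPM, the amino acid transporter subunit gene Slc3a2 118 ± 33.3 and 203 ± 38.7 CPM and the glycyl-tRNA synthetase gene Gars 89.8 ± 7.52 and 173 ± 108 CPM, all without overlap. The synthetase genes Eprs (133 ± 26.4 and 167 ± 21.7 CPM) and Sars (125 ± 23.4 and 173 ± 57.3 CPM) overlapped.

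Nupr1 and Slc1a5, and a further pair of targets that were higher in Sdha-KO, were singled out after their values were seen. The asparagine synthetase gene Asns had 0, 3 and 5 counts in the WT libraries of batches 1 to 3, against 217, 57 and 139 in Sdha-KO. Every Sdha-KO library held more than every WT library. The mitochondrial folate enzyme gene Mthfd2 had 20.1, 19.97 and 23.2 CPM in WT and 132, 110 and 93.0 CPM in Sdha-KO libraries. Neither passed edgeR's test without a block (adjusted p = 1.00 and 0.677), while both passed DESeq2 with the replicate block. Over 17 alternatives the adjusted p ranged from 0.0492 to 1.00 for Asns and from 0.000817 to 1.00 for Mthfd2. Of these Asns passed 1 and Mthfd2 2, and edgeR with the replicate block called neither. The hormone gene Fgf21, the secreted glycoprotein gene Stc2 and the lipoprotein receptor gene Vldlr, also targets of the pathway, had no count in any library.

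**Figure D4:**
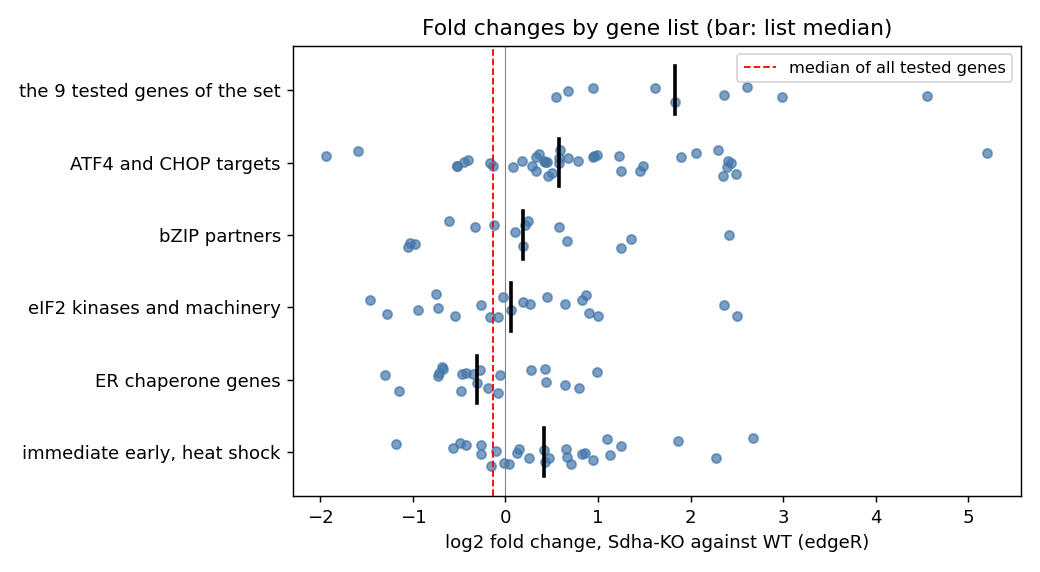
Fitted log2 fold change of single genes (x axis, Sdha-KO against WT) by gene list (y axis). Points are genes with random vertical spread, black bars are list medians, and the dashed line is the median of all tested genes, -0.13. The median lies at 0.58 for ATF4 and CHOP targets and at -0.31 for endoplasmic reticulum chaperone genes.

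The chaperone genes that ATF6 and XBP1 control in the endoplasmic reticulum, the other arms of the unfolded protein response, did not share the positive direction. Of 21 tested, 6 were positive, and the median was -0.31. It was -0.75 with 4 positive in edgeR with the replicate block, -1.26 with 3 positive in limma-voom, and -0.090 with 10 positive without both batch 1 libraries. In these settings the median of all tested genes was -0.48, -0.65 and -0.017. edgeR and DESeq2 called 0 (1 each at an unadjusted p under 0.05), limma-voom called 2, Dnajc3 and Pdia3, and edgeR with the block and without batch 1 called Pdia3. Over all genes these settings called, in that order, 5, 21 and 79 of 9963 and 324 of 10757. Hspa5, which encodes the main chaperone BiP, had 1073 ± 255 and 1012 ± 67.0 CPM, Calr 1088 ± 258 and 784 ± 164 CPM and Hsp90b1 750 ± 75.4 and 606 ± 313 CPM, each with overlap. Pdia3 had 489 ± 88.8 and 220 ± 66.2 CPM without overlap, with Sdha-KO below (edgeR adjusted p = 1.00; 0.0102 to 1.00 over 17 alternatives, of which it passed 2).

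The receptor and the processing of GDF15 were looked at in the same cells. Gfral, the receptor of GDF15 in the brainstem, and its partner Ret had no count in any library. Furin, whose protease cleaves TGF-beta superfamily precursors, had 576, 220 and 248 CPM in WT replicates 1 to 3 and 619, 232 and 289 CPM in Sdha-KO replicates 1 to 3. It followed the batch, with batch 1 highest in both genotypes. Mmp14 and Pcsk7 were at 3.93 ± 5.18 and 3.62 ± 3.08 CPM in WT and 8.44 ± 8.31 and 7.63 ± 6.72 CPM in Sdha-KO. Of 17 other ligand genes of the superfamily 7 had no count in any library and 3 were tested, of which none was called. Inhba had 13.8 ± 19.5 and 63.7 ± 58.4 CPM and Tgfb1 9.36 and 3.33 CPM on average, with overlap. Tgfb2 had 272, 45 and 61 counts in WT replicates and 0, 0 and 16 in Sdha-KO replicates of the same number.

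Among the 5 genes whose levels followed Gdf15 most closely over the 6 libraries, of 4595 others with a mean of at least 20 CPM, were Rps23 (Pearson r = 0.990 of log2 (CPM + 1)), C330021F23Rik (0.986), Tgif1 (0.984) and Cdkn1a (0.983). The libraries share batch and depth, and these values describe the 6 libraries only. As Gdf15 differed between the genotypes, r is also raised for any gene that differed between them in the same direction. C330021F23Rik overlaps a pseudogene copy of Rps23 on the other strand, so these rows may share reads. Cdkn1a, the cell cycle inhibitor p21, had 256, 224 and 262 CPM in WT replicates 1 to 3 and 816, 626 and 575 CPM in Sdha-KO replicates 1 to 3. Tgif1, a repressor in TGF-beta signalling, had 23.8, 34.4 and 32.3 against 202, 83.9 and 103 CPM. Among the set, Atf4 stood at place 49 of those 4595 genes (r = 0.927), Atf5 at 363 (0.763), Ppp1r15a at 377 (0.756), Atf3 at 913 (0.561) and Ddit3 at 1058 (0.506).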

How the data were processed

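RNA of 6 libraries of sorted alveolar macrophages was measured with a QuantSeq 3' mRNA kit, per the labels' protocols. The deposited table holds raw counts per gene symbol with no normalization by the authors, from Bowtie2 and bedtools on mm10 per the submitters' processing notes. How reads were assigned (annotation, several matches, strand) is not given in the sources used here, and reads may include PCR copies. Of 23282 rows, 7901 were 0 throughout. Genotypes were compared in R 4.3.3 by the quasi-likelihood F-test of edgeR 4.0.16 in its robust form, after filterByExpr (minimum count 10) and TMM scaling, with genotype as the only term. Adjustment was by Benjamini-Hochberg over 9963 genes, at 0.05. The script was run on simulated counts that varied far less between libraries than these data and had no batches. That run checks the code only, not how the test behaves on these libraries. CPM is scaled by TMM, and an SE is the log2 fold change over the root of its F. The TMM factors ranged from 0.778 (WT replicate 2) to 1.42 (Sdha-KO replicate 1). Within-batch plots use CPM + 1. Alternatives included DESeq2 1.42.0 and limma 3.58.1. Coordinates are GENCODE M21 (mm10).

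The labels give replicate numbers as batch numbers, so the numbers pair the libraries. Deviations from group means of paired libraries correlated at 0.147, 0.135 and 0.103. Those of WT and Sdha-KO libraries with unlike numbers correlated at -0.149 to 0.0874. The values between batches 2 and 3, 0.0874 and 0.0524, were near those of the pairs. The members and gene lists were chosen with earlier results of these data known. The naming rule took the 10 genes, the 4 most abundant tested genes of each list (6 for targets), called genes, the 5 genes most like Gdf15 and Sdha; marker lists are given as counts and sums, apart from genes of the sort or a call. Of the 5 genes most like Gdf15, 1 is not reported here.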

Additional observations from a re-analysis of the deposited data

How the results depend on the processing

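Counts of called genes and of the set depended on the setting. The 5 called genes (1 of the set) became 9 (all higher) with library totals alone, 48 (4 of the set: Gdf15, Atf3, Atf5 and Ppp1r15a) with no filter, 0 (0) with the stricter filter of 10 counts in every library of a genotype (255 genes had an unadjusted p under 0.05; Trib3, Sesn2 and Ddit4 could not be fitted), 21 (1) with DESeq2, 79 (0) with limma-voom, 0 (0) with edgeR and the replicate block, 72 (2) with DESeq2 and the replicate block, 27 (2) without both batch 1 libraries and 324 (6: the same 4, Atf4 and Trib3) without them and with the replicate block, where 1 residual degree of freedom is left and sexes are mixed unequally. Leaving out 1 library gave 0 to 13 called genes and 0 or 1 of the set; the 0 was without WT replicate 1. The median of all tested genes, -0.13, was 0.052 with library totals alone, -0.65 with limma-voom, -0.48 with edgeR and -0.50 with DESeq2 under the replicate block, -0.017 without both batch 1 libraries, and -0.38 to 0.062 with 1 library left out. The median of the ATF4 and CHOP targets, 0.58, was 0.90 with library totals alone, and their leave-one-out range is 0.55 to 0.79. Without the rows Rn45s, Rn4.5s and Lars2, edgeR called 5 of 10047 genes (1 of the set), and the fitted change of Gdf15 was 2.95. Each fitted change of a gene of the set was positive in every setting run; without WT replicate 3 it was 9.53 for Trib3 and 5.08 for Ddit4. Of the 5 genes most like Gdf15, 2, Rps23 and C330021F23Rik, were at the highest Spearman value, which 43 genes shared, and 0 were among the first 5 without both batch 1 libraries. Signs of genes outside the set that were not called changed for Cebpa (0.036), Hspa5 (0.19) and Ppp1r15b (0.016) with library totals alone; for Inhba (-0.91) and Pcsk7 (-0.74) with limma-voom; for Atf6b (-0.069), Pcsk7 (-0.082) and Eif2ak2 (-0.12) with edgeR and the replicate block, and (-0.071, -0.16 and -0.13) with DESeq2 and the block; for Atf6b (-0.24), Hspa5 (0.091), Ppp1r15b (0.087) and Eif2ak2 (-1.83) without both batch 1 libraries, and (-0.24, 0.091, 0.097 and -1.76) with the block as well. With 1 library left out the ranges that crossed 0 were those of Atf6b (-1.08 to 0.93), Cebpb (-0.053 to 0.22), Eif2ak2 (-1.25 to 1.92), Eif2s2 (-0.10 to 0.36), Furin (-0.42 to 0.69), Hsp90aa1 (-0.35 to 0.96), Hspa5 (-0.22 to 0.12), Ppp1ca (-0.019 to 0.35), Ppp1r15b (-0.42 to 0.22). The cause of these changes was not tested. Low counts limit Chac1, Trib3, Sesn2 and Ddit4; batch 1, with the highest total counts of each genotype, held 0 or 1 count of each of them.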
